A study of Mus musculus with 95 samples.

Results

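The cholesterol genes described here are 32 mouse genes of sterol synthesis, its control, and the uptake, transport, storage, efflux and turnover of cholesterol, taken by symbol from a list and matched to the gene identifiers of the count table, which holds 39179 genes. All 32 were found, and all 32 passed the filter on low counts in striatum, cortex and liver. By role they are 18 synthesis enzymes, 4 regulators of the transcription factor Srebf2 (with Srebf2 itself), 4 genes of uptake, transport and storage, 4 of efflux and turnover, and 2 liver X receptors. Messenger RNA was sequenced from left liver, left-hemisphere striatum and left-hemisphere cortex of C57BL6/J mice at 6 months of age. The groups were heterozygous Z_Q175 (neo-) knock-in mice (CHDI-81003019, here neo-out Het), their wild-type littermates (neo-out WT), heterozygous z_Q175 knock-in mice (CHDI-81003003, here neo-in Het) and their wild-type littermates (neo-in WT). Each Het mouse carried 1 Htt allele with an expanded CAG repeat, and the lines differ in whether the neo selection cassette is still present at that allele. The wild-type groups carry no knock-in allele, so their comparison sets littermates of different lines against each other, and line cannot be told apart from anything else that differed between the cohorts. Each group had 4 females and 4 males, and 32 animals gave 95 libraries; the neo-out Het striatum had 7, since its male replicate 1 was not analysed here.

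Cholesterol is built from acetyl-CoA by way of mevalonate, farnesyl diphosphate, squalene and lanosterol. When sterols in the endoplasmic reticulum are low, Scap escorts the Srebf2 protein to the Golgi, where it is cut and released to switch on the synthesis enzymes; when sterols are high, Insig1 and Insig2 hold Scap back. The adult brain makes nearly all of its own cholesterol, because lipoproteins of the blood do not cross the blood-brain barrier: astrocytes pass it to neurons on Apoe particles, oligodendrocytes put it into myelin, and neurons remove the excess through the hydroxylase Cyp46a1. The liver makes, takes up, secretes and converts cholesterol to bile acids.

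The promoters of the 4 genes on which most of the brain results turn are printed so that the sequence can be read beside the values: Hmgcs1 as an early enzyme of the pathway, Insig1 as the regulator with the largest Het difference in brain, Msmo1 as a late synthesis enzyme and Cyp46a1 as the turnover enzyme of neurons. Each window runs from 250 bases before to 50 bases after the RefSeq start of the gene, on the gene's own strand, in GRCm38.p6. Hmgcs1 lies on the plus strand at chr13:119690101-119690400, Insig1 on the plus strand at chr5:28071162-28071461, Msmo1 on the minus strand at chr8:64733529-64733828 and Cyp46a1 on the plus strand at chr12:108334066-108334365. Capitals mark CCAAT or its reverse complement ATTGG (the CCAAT box), CACGTG (an E-box, which reads the same on both strands) and TCACNCCAC on either strand (the letters of a sterol regulatory element).
Hmgcs1: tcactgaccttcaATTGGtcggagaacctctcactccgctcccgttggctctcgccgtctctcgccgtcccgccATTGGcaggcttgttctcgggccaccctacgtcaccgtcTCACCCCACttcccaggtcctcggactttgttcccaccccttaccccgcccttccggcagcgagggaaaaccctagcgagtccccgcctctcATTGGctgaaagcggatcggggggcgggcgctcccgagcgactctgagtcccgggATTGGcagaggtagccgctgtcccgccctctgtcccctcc
Insig1: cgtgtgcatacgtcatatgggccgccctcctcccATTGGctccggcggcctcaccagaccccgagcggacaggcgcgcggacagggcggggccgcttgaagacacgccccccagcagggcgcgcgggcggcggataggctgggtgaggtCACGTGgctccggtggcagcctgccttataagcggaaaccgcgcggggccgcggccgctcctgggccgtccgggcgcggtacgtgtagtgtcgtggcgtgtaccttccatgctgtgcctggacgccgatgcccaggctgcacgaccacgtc
Msmo1: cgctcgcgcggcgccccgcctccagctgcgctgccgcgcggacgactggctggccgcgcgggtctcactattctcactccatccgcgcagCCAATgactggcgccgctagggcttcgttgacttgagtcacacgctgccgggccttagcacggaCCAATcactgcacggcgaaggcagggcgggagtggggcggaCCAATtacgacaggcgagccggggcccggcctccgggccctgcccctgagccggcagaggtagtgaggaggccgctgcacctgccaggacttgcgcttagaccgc
Cyp46a1: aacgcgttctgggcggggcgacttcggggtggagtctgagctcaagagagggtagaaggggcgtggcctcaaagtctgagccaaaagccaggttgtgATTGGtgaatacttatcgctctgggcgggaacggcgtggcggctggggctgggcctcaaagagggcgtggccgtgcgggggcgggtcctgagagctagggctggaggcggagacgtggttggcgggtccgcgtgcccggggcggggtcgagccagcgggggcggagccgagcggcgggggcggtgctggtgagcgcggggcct
The Hmgcs1 window held 1 match to TCACNCCAC and 4 to CCAAT, the Insig1 window 1 CCAAT and 1 CACGTG, the Msmo1 window 3 CCAAT and the Cyp46a1 window 1 CCAAT. RefSeq windows were given for 26 of the 32 genes. CCAAT was found on either strand in 20 of the 26 (76.9%) and in 14 of the 15 synthesis enzymes with a window (93.3%), against 41.1% of all 27025 genes with a window. CACGTG was in 6 of 26 windows, those of Hsd17b7, Sc5d, Dhcr7, Insig1, Scap and Abca1 (23.1%), against 8.09% of all genes, and TCACNCCAC was in 1 of 26 (3.85%), against 1.44%. In the windows printed no match overlapped another. A match is only a run of letters in a window, not a shown binding site.

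Library totals were 33115800 to 68359000 expected counts in liver, 31095800 to 43052700 in striatum and 31020000 to 43990300 in cortex. Tissue markers matched the labels: Alb had a median of 71112 CPM (counts scaled to a common library size) in liver and at most 15.9 CPM in any brain library, and the neuronal gene Snap25 had a median of 1348 CPM in striatum, 3088 CPM in cortex and 0 in liver. Htt, the targeted gene, was lower in Het than in WT mice in each tissue and line, by 0.23 to 0.57 on the log2 scale, and all 6 differences passed the test; counts do not separate the alleles. Exons of 10 of the 32 genes share bases with another annotated gene, 7 of them with a gene on the opposite strand, and whether counting used strand is not stated. The largest shares were in Fdps (26.7% of its exon bases, with Gm43738 on the same strand) and Fdft1 (18.3%, with Ctsb on the opposite strand). In 10 brain libraries (6 of cortex, 4 of striatum) markers of a neighbouring tissue or of choroid plexus were high, and counts without them are given beside the results they change. In bulk tissue, fewer cells of a type and less RNA per cell cannot be told apart.

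Liver held more of most of these transcripts than brain. The exceptions were Srebf2, Soat1, Abcg1 and Cyp46a1 against both brain tissues and Nr1h2 against cortex alone. In wild-type libraries Apoe, an apolipoprotein of both blood and brain, had the highest level of the 32 per gene length in each tissue. Levels are given here in FPKM, a fragment count scaled to transcript length and library size. Over 16 libraries per tissue, Apoe had a median of 9127 FPKM in liver, 649 FPKM in striatum and 614 FPKM in cortex. In liver it was followed by Sc5d, a late sterol desaturase, at 270 FPKM, Hmgcs1 at 212 FPKM and Fdps, the farnesyl diphosphate synthase, at 200 FPKM. In striatum it was followed by Cyp46a1 at 78.1 FPKM and Hmgcs1 at 57.4 FPKM, and in cortex by Hmgcs1 at 96.7 FPKM and Cyp46a1 at 73.7 FPKM. Cyp46a1 was the lowest of the 32 in liver, with a median of 0.82 FPKM and a range of 0.203 to 2.88 FPKM. The lowest in brain was Nr1h3 (liver X receptor alpha, a sensor of oxysterols), at 40.7 FPKM in liver, 1.47 FPKM in striatum and 1.31 FPKM in cortex. The other liver X receptor, Nr1h2, had a median of 16.2 FPKM in liver, 15.7 FPKM in striatum and 21.2 FPKM in cortex. Its direction against cortex depends on the scaling, as given below.

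**Figure D1:**
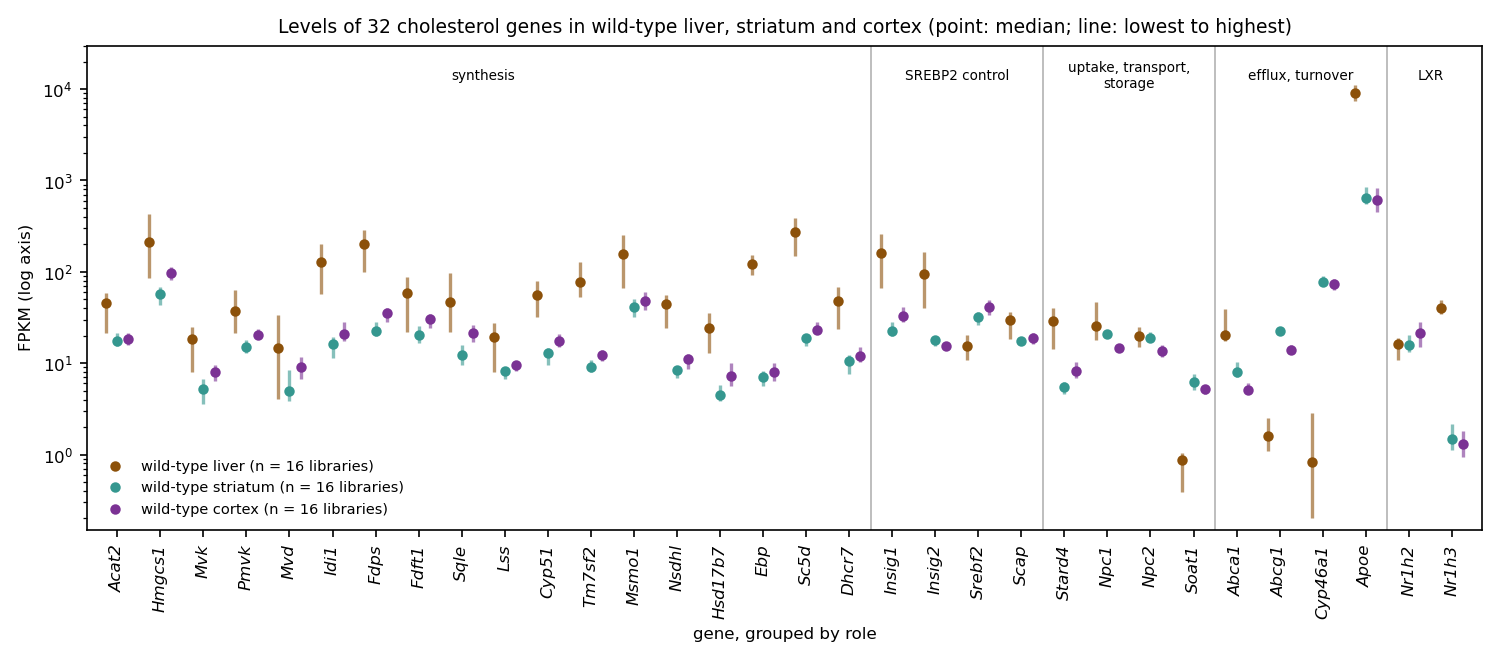
Level of each of the 32 genes in wild-type liver, striatum and cortex, in FPKM on a vertical log axis; points are medians over 16 libraries per tissue and bars run from the lowest to the highest library. Liver points lie above the brain points for most genes, while Cyp46a1 (0.82 FPKM in liver, 78.1 FPKM in striatum and 73.7 FPKM in cortex), Abcg1, Soat1 and Srebf2 lie lower in liver. The Nr1h2 point lies lower in liver (16.2 FPKM) than in cortex (21.2 FPKM) but not than in striatum (15.7 FPKM).

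Between wild-type liver and striatum, 28 of the 32 genes were higher and 4 lower in liver, and the same numbers held between liver and cortex. These counts are from edgeR's quasi-likelihood test with Benjamini-Hochberg adjustment over all genes, with genes called at an adjusted p below 0.05. Of all genes 92.5% were called between liver and striatum (41.2% higher and 51.3% lower in liver) and 92.9% between liver and cortex (41.5% higher and 51.4% lower), so the total count says little. The median log2 difference of the 32 was 2.86 against striatum and 2.36 against cortex, where the medians of all genes were -0.25 and -0.26. All 18 synthesis enzymes were higher in liver, from 2.09 (Lss, lanosterol synthase) to 5.12 (Ebp, a sterol isomerase) log2 against striatum and from 1.65 (Mvd) to 4.97 (Ebp) against cortex. The 4 genes lower in liver were Srebf2, Soat1 (which esterifies cholesterol for storage), Abcg1 (an efflux pump) and Cyp46a1, by log2 differences of -0.15, -2.04, -2.81 and -5.58 against striatum and -0.55, -1.76, -2.19 and -5.48 against cortex. Nr1h3 had the largest excess in liver, 5.70 against striatum and 5.83 against cortex. With scaling to library totals in place of TMM, the median of all genes moved to -1.18 against striatum and -1.19 against cortex, and the differences of these genes moved down with it. The 18 enzymes all stayed higher in liver there, the smallest differences being 1.14 against striatum and 0.71 against cortex. Nr1h2 (liver X receptor beta) was at -0.41 against cortex under that scaling, in place of 0.53, and against striatum Nr1h2 and Npc2 were no longer called.

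Within brain, 17 of 18 synthesis enzymes were lower in striatum than in cortex, while 3 of 4 genes of uptake, transport and storage and 2 of 4 of efflux and turnover were higher. Of the 32, 6 were higher and 21 lower in wild-type striatum than in wild-type cortex (67% of all genes were called, 33.7% higher and 33.3% lower), with a median log2 difference of -0.39 against 0.00 for all genes. Among the synthesis enzymes 17 of 18 were lower, led by Mvd (mevalonate diphosphate decarboxylase, -0.82), Sqle (squalene epoxidase, -0.81) and Hmgcs1 (-0.80); Acat2, which joins 2 acetyl-CoA at the start of the pathway, was at -0.09 and was not called. Higher in striatum were Insig2 (0.15), Npc1 and Npc2, which carry cholesterol out of lysosomes (0.48 and 0.47), Soat1 (0.28), and the efflux pumps Abca1 (0.63) and Abcg1 (0.62). Stard4, a soluble sterol carrier, was lower (-0.63), as was Nr1h2 (-0.46). Apoe (0.11), Cyp46a1 (0.11), Nr1h3 (0.13) and Scap (-0.08) did not pass the test. Without the libraries with neighbouring-tissue markers, 5 of the 32 were higher and 20 lower in striatum. All 10 oligodendrocyte markers were higher in striatum as well, with a median of 1.05 log2, while among 10 astrocyte markers 2 were higher and 4 lower; their part in these differences was not tested.

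Levels of most of these genes varied far more between animals in liver than in brain. Within a group of the same line, genotype and sex, the SD of log2 CPM had a median over the 32 genes of 0.329 in liver, 0.108 in striatum and 0.111 in cortex, and for the 18 synthesis enzymes of 0.362 in liver, 0.108 in striatum and 0.106 in cortex. Hmgcs1 had an SD of 0.491 in liver, and its ranges with females and males pooled were wide. It ran from 412 to 1253 CPM in neo-out Het livers and from 293 to 1350 CPM in neo-out WT livers. In neo-in livers it ran from 270 to 1432 CPM in Het mice and from 374 to 1057 CPM in WT mice. Apoe, Nr1h2 and Nr1h3 went the other way. Their SDs were 0.167, 0.181 and 0.086 in liver, against 0.216, 0.226 and 0.190 in striatum and 0.225, 0.263 and 0.277 in cortex. Standard errors were correspondingly wider in liver for the genes with the wider spread there.

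In wild-type brain, neo-out mice had more transcript of several synthesis enzymes than neo-in mice had. In striatum 7 of the 32 genes were higher and none lower, where 0.469% of all genes were called (0.186% higher and 0.282% lower). In cortex 13 were higher and none lower, where 1.79% of all genes were called (1.04% higher and 0.751% lower). The median log2 difference of the 18 synthesis enzymes was 0.22 in cortex, with all 18 positive, and 0.18 in striatum, with 17 positive; the medians over all genes were 0.00 in both. The called enzymes differed by 1.15-fold to 1.28-fold. Hmgcs1, Fdps, Fdft1, Sqle, Cyp51 and Msmo1 were called in both tissues.

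Group values are given as lowest, median and highest library. Hmgcs1 (ENSMUSG00000093930, chromosome 13, start 119690379, end 119708260, plus strand, mm10), whose enzyme makes the precursor of mevalonate, had 183, 204 and 222 CPM in neo-out WT striatum, against 146, 163 and 192 CPM in neo-in WT striatum. The groups overlapped only between 183 and 192 CPM, and the log2 difference was 0.32 ± 0.05 (SE, adjusted p = 0.00188, edgeR quasi-likelihood). In cortex it had 292, 353 and 369 CPM in neo-out WT mice, against 263, 277 and 347 CPM in neo-in WT mice, a log2 difference of 0.26 ± 0.06 (adjusted p = 0.0172, edgeR). Here the neo-in group reached well into the neo-out range. Msmo1 (ENSMUSG00000031604, chromosome 8, start 64718139, end 64733792, minus strand), the methylsterol monooxygenase that acts after lanosterol, had 80.4, 88.2 and 99.7 CPM in neo-out WT striatum, against 63.4, 70.3 and 85.7 CPM in neo-in WT striatum (0.31 ± 0.06, adjusted p = 0.0073, edgeR). In cortex Msmo1 had 90.5, 106 and 115 CPM in neo-out WT mice, against 77.6, 86.3 and 113 CPM in neo-in WT mice (0.26 ± 0.06, adjusted p = 0.0161, edgeR). Both tissues came from the same animals, so they are not independent evidence.

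Of the remaining called enzymes in striatum, Idi1 (isopentenyl diphosphate isomerase) differed by 0.33 ± 0.06 log2, Fdps by 0.27 ± 0.04, Fdft1 (squalene synthase) by 0.22 ± 0.05, Sqle by 0.29 ± 0.05 and Cyp51 (lanosterol demethylase) by 0.29 ± 0.05. In cortex the largest difference was in Mvd (0.36 ± 0.08). The smallest p was that of Dhcr7, the last step to cholesterol on one branch, with 29.2, 34.0 and 39.0 CPM in neo-out WT mice, against 26.2, 28.6 and 30.96 CPM in neo-in WT mice (0.25 ± 0.05, adjusted p = 0.00492, edgeR). Fdft1 (0.20 ± 0.04), Nsdhl (a sterol dehydrogenase, 0.24 ± 0.05), Fdps (0.23 ± 0.05) and Sqle (0.24 ± 0.05) were also called there, as were Cyp51 and Hsd17b7. Outside synthesis, cortex alone had Insig1 (0.23), Stard4 (0.24) and Soat1 (0.15) among the called genes, and no efflux gene or liver X receptor was called in either tissue.

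**Figure D2:**
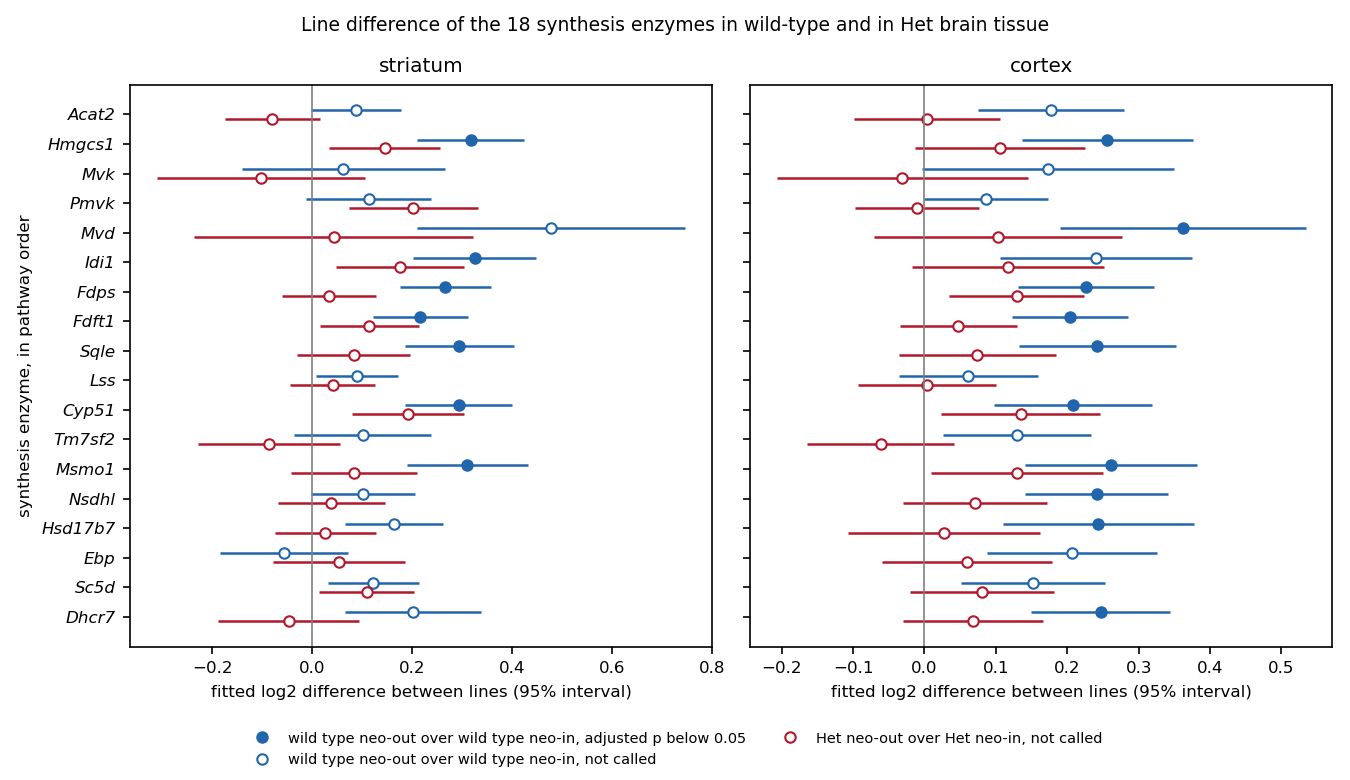
Log2 difference, neo-out less neo-in, of the 18 synthesis enzymes in striatum and cortex, with 95% intervals; red points compare the Het groups, blue points the WT groups, and filled points passed the test. Blue points lie to the right of 0 for 17 of 18 enzymes in striatum and 18 of 18 in cortex, red points lie closer to 0 for most enzymes but not for all (Pmvk and Mvk in striatum lie farther), and none of the red points is filled.

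The Het groups of the lines, which share no library with the wild-type groups, gave smaller median differences. None of the 32 genes was called between neo-out Het and neo-in Het mice in striatum (0.378% of all genes called), cortex (1.3%) or liver (2.6%) by edgeR; 9, 5 and 3 had an unadjusted p below 0.05 (14.2%, 13.6% and 16.4% of all genes), and DESeq2 called 1, 0 and 0. The median over the synthesis enzymes was 0.05 log2 in striatum, with 14 of 18 positive, and 0.07 in cortex, with 15 of 18 positive. Hmgcs1 was at 0.15 ± 0.05 in striatum (adjusted p = 0.215, edgeR) and 0.11 ± 0.06 in cortex (adjusted p = 0.450, edgeR). Dhcr7 was at -0.05 ± 0.07 in striatum and 0.07 ± 0.05 in cortex. Soat1 was not called either, though it was higher in every neo-out Het striatum than in any neo-in Het striatum (0.24 ± 0.06, adjusted p = 0.0902, edgeR). The share of all genes with such a separation was not computed. Leaving out the striatum of neo-in Het male 1 gave 1 call. That the wild-type difference was called and the Het difference was not does not show that they differ: the test of their difference is the comparison of Het effects below.

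The wild-type line difference depends on a few settings. Among the libraries left out in turn, the cortex count of 13 was 7 without neo-in WT female 3 and 8 without neo-in WT female 1 or male 1, 3 or 4, or without neo-out WT female 3 or male 1. Without the libraries with neighbouring-tissue markers (neo-in WT females 1 to 3 and neo-out WT female 1 in cortex; neo-in WT female 3 and neo-out WT females 3 and 4 and male 2 in striatum) no gene was called in either tissue. The median absolute log2 difference of the genes called with all libraries was 0.256 in cortex (0.24 with all libraries) and 0.276 in striatum (0.29 with all libraries). Their signs were all kept. Fewer libraries remained, with female 4 the only neo-in WT female in cortex. The median standard errors were 0.0751 in place of 0.0541 in cortex and 0.0618 in place of 0.0523 in striatum. Lost calls here thus do not show that the difference rests on the libraries left out. With a clock score of each animal's liver as a covariate, 1 gene was called in cortex (Fdft1, 0.33) and 0 in striatum. The median differences were 0.198 and 0.289 and all signs were kept, but the median standard errors were 0.109 in place of 0.0541 in cortex and 0.112 in place of 0.0523 in striatum.

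That clock score, the mean log2 CPM of Dbp, Nr1d1, Nr1d2, Per3, Tef and Ciart less that of Arntl, Npas2, Clock and Nfil3, is a measure of the phase of the daily rhythm, and it separated the wild-type groups. It had a lowest, median and highest value of -3.11, -0.83 and -0.18 in neo-out WT livers, against 1.48, 3.87 and 5.03 in neo-in WT livers, and of -0.51, 2.22 and 3.64 in neo-out Het livers and 0.55, 1.95 and 5.03 in neo-in Het livers. The neo-out WT livers lay apart from the neo-in WT livers with no overlap, so line and clock score cannot be told apart well among wild-type mice. Of 18 clock genes, 5 were higher and 10 lower in neo-out WT than in neo-in WT liver, 2 and 4 in striatum and 3 and 4 in cortex; Dbp, a clock output factor, was at -4.40 log2 in liver, -0.65 in striatum and -0.59 in cortex. In the same comparison no astrocyte or oligodendrocyte marker was called in striatum or cortex, and of 8 endothelial and mural markers 1 was lower in striatum and none in cortex. Of 8 microglia markers 1 was lower in striatum (Cx3cr1, -0.17), with a list median of -0.11. Of 8 striatal projection neuron markers 1 was lower in cortex (Rgs9, -0.75), with a list median of -0.34. The medians of the 6 choroid plexus markers were 1.25 in striatum and 1.22 in cortex and that of the 6 cortical excitatory markers in striatum 0.93, with none of them called. The part of these markers in the line difference was not tested.

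Beyond the 32 genes, 27 other sterol genes were measured in brain. Between the wild-type groups 2 were higher and none lower in cortex, among them the lipoprotein receptor Lrp8 (0.15 ± 0.04, adjusted p = 0.0324, edgeR), and none was called in striatum (Lrp8 0.20, adjusted p = 0.0644, edgeR). Of 15 fatty acid genes, 1 was higher in cortex, the elongase Elovl6 (0.28 ± 0.05, adjusted p = 0.00351, edgeR), and none in striatum. Between the Het groups in cortex, 2 of the other sterol genes and 1 fatty acid gene were higher in neo-out mice. Of all genes, 1.79% were called between the wild-type groups in cortex, 0.469% in striatum and 1.3% between the Het groups in cortex.

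In neo-out Het brain, Insig1 and several synthesis enzymes were lower than in neo-out WT brain, and Cyp46a1 was lower in striatum. In neo-out striatum 1 of the 32 genes was higher and 7 lower in Het mice, where 18% of all genes were called (8.71% higher and 9.28% lower). The total of 8 is not far above that background. In neo-out cortex none was higher and 6 were lower, where 2.8% of all genes were called (0.825% higher and 1.98% lower). The median of the 18 synthesis enzymes was -0.10 log2 in striatum (14 negative) and -0.15 in cortex (17 negative), against 0.01 and 0.00 for all genes. These comparisons and the wild-type line comparison share the neo-out WT libraries.

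Insig1 (ENSMUSG00000045294, chromosome 5, start 28071363, end 28078662, plus strand), which holds back Srebf2 and is itself switched on by it, had 43.5, 46.4 and 57.6 CPM in the 7 neo-out Het striata, against 59.9, 65.9 and 77.2 CPM in the 8 neo-out WT striata. Every Het library lay below every WT library, and the log2 difference was -0.47 ± 0.06 (adjusted p = 2.02e-06, edgeR quasi-likelihood), or 0.724 of the WT level. In neo-out cortex Insig1 had 62.4, 74.4 and 86.5 CPM in Het mice, against 81.5, 97.2 and 112 CPM in WT mice (-0.42 ± 0.06, adjusted p = 4.72e-05, edgeR), with overlap between the highest Het and the lowest WT libraries. In neo-in striatum it had 48.5, 53.6 and 59.4 CPM in Het mice, against 54.5, 59.9 and 71.9 CPM in WT mice (-0.17 ± 0.06, adjusted p = 0.0376, edgeR). That difference was not called with library totals (-0.12, adjusted p = 0.155) or with FPKM and limma (-0.12, adjusted p = 0.176). In neo-in cortex Insig1 was at -0.09 (adjusted p = 0.557, edgeR) and was not called.

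Cyp46a1 (ENSMUSG00000021259, chromosome 12, start 108334381, end 108362234, plus strand), the neuronal enzyme that hydroxylates cholesterol so that it can leave the brain, fell in the striatum of both lines. It had 126, 134 and 149 CPM in neo-out Het striatum, against 157, 172 and 183 CPM in neo-out WT striatum, with no overlap (-0.33 ± 0.05, adjusted p = 3.6e-05, edgeR). In neo-in striatum it had 134, 139 and 156 CPM in Het mice, against 151, 164 and 200.4 CPM in WT mice (-0.24 ± 0.05, adjusted p = 0.000837, edgeR), with the groups meeting at 151 to 156 CPM. In cortex it had 135, 147 and 169 CPM in neo-out Het mice, against 144, 159 and 180.4 CPM in neo-out WT mice. It had 134, 150.4 and 174 CPM in neo-in Het mice, against 134, 155 and 160.4 CPM in neo-in WT mice, and it was called in neither line. All 8 striatal projection neuron markers fell in Het striatum of both lines: their summed level was 3372 to 4569 CPM in neo-out Het, against 5738 to 7230 CPM in neo-out WT, and 3748 to 4398 CPM in neo-in Het, against 6067 to 7657 CPM in neo-in WT. The part of projection neurons in the Cyp46a1 difference was not tested; the summed general neuronal markers overlapped, at 2967 to 3346 CPM in neo-out Het, against 2861 to 3352 CPM in neo-out WT striatum.

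**Figure D3:**
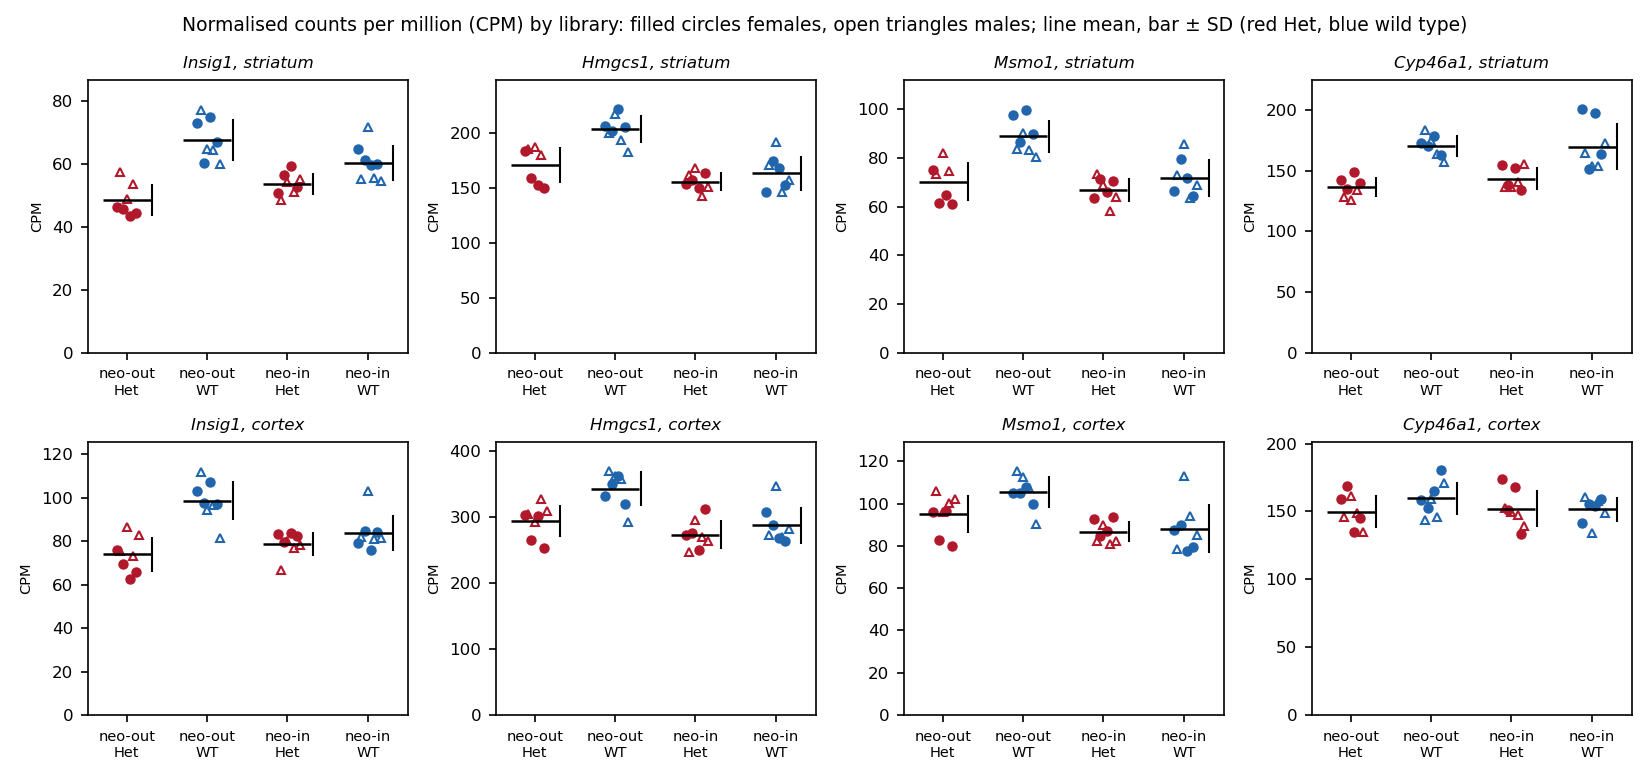
Insig1, Hmgcs1, Msmo1 and Cyp46a1 in each library of striatum (top) and cortex (bottom), in CPM; filled circles are females, open triangles males, red Het, blue WT, with the mean as a line and ± SD as a bar. In striatum every neo-out Het point for Insig1 and Cyp46a1 lies below every neo-out WT point, while Hmgcs1 and Msmo1 have their highest mean in the neo-out WT group.

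Among the synthesis enzymes in neo-out striatum, Msmo1 had 61.0, 73.6 and 81.9 CPM in Het mice, against 80.4, 88.2 and 99.7 CPM in WT mice (-0.32 ± 0.06, adjusted p = 0.000311, edgeR). Acat2 had 28.3, 32.8 and 34.6 CPM in Het mice, against 34.5, 40.4 and 48.3 CPM in WT mice (-0.30 ± 0.05, adjusted p = 2.07e-05, edgeR). Hmgcs1 had 150.2, 180.3 and 187 CPM in Het mice, against 183, 204 and 222 CPM in WT mice (-0.24 ± 0.05, adjusted p = 0.00197, edgeR). For each of these 3 enzymes the highest Het library lay just above the lowest WT library. Idi1 (-0.26 ± 0.06) and Cyp51 (-0.17 ± 0.05) also fell. The Hmgcs1 median of 180.3 CPM in neo-out Het striatum lay between the 204 CPM of neo-out WT and the medians of the neo-in groups, 156 CPM in Het and 163 CPM in WT striatum.

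Abca1, the pump that loads cholesterol onto Apoe particles, was the gene that rose in neo-out Het striatum, with 82.3, 93.0 and 103 CPM, against 70.2, 80.4 and 87.1 CPM in WT mice (0.23 ± 0.06, adjusted p = 0.00914, edgeR). In neo-in striatum it had 85.0, 92.5 and 119.9 CPM in Het mice, against 79.996, 88.0 and 102 CPM in WT mice, and was not called. In neo-out cortex, beside Insig1, Stard4 fell (31.8, 37.6 and 40.7 CPM in Het, against 40.3, 44.0 and 50.7 CPM in WT; -0.27 ± 0.06, adjusted p = 0.00913, edgeR). So did the enzymes Hsd17b7 (-0.24 ± 0.07), Hmgcs1 (-0.22 ± 0.06), Acat2 (-0.20 ± 0.05) and Fdft1 (-0.17 ± 0.04). The count of 6 in neo-out cortex was 3 without neo-out Het female 4 or male 1 or without neo-out WT female 3 or male 1. With the clock score as covariate, Insig1 and Fdft1 (-0.39 and -0.26) were the 2 of 6 still called there. In neo-out striatum Insig1 and Cyp46a1 (-0.35 and -0.34) were the 2 of 8 still called. All signs were kept, but median standard errors were 0.0903 in place of 0.0581 in cortex and 0.0944 in place of 0.0578 in striatum. The score ran from -0.51 to 3.64 in neo-out Het livers, against -3.11 to -0.18 in neo-out WT livers. Genotype and clock score thus cannot be told apart well in this line. With library totals 3 genes were higher and 6 lower in neo-out striatum.

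Some markers of other cells were called in the same striata. In neo-out Het striatum 1 astrocyte marker of 10 was higher and 4 lower, 4 of 10 oligodendrocyte markers and 4 of 8 endothelial and mural markers were lower. Of 6 choroid plexus markers 3 were lower, with 1 neo-out WT library at a sum of 1459.6 CPM against a group median of 39.4 CPM. The summed oligodendrocyte markers ran from 7659 to 9297 CPM in neo-out Het, against 9268 to 10855 CPM in neo-out WT striatum, and the summed astrocyte markers from 3877 to 4222 CPM, against 4207 to 5060 CPM. Their part in the fall of the synthesis enzymes was not tested. Without the libraries with neighbouring-tissue markers, 2 genes were higher and 6 lower in neo-out striatum and 5 were lower in neo-out cortex. In neo-out Het cortex 1 astrocyte marker and 1 endothelial and mural marker were lower and no oligodendrocyte marker was called.

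In neo-in Het brain few of these genes were called. In neo-in striatum 2 of the 32 were higher and 3 lower, where 19.4% of all genes were called (8.75% higher and 10.7% lower), so the share of these genes is near that of all genes. The called genes were Cyp46a1 and Insig1 as above, Acat2, Fdps and mevalonate kinase, Mvk. Acat2 was lower (32.7, 34.3 and 37.0 CPM in Het, against 35.4, 38.1 and 39.4 CPM in WT; -0.13 ± 0.04, adjusted p = 0.0325, edgeR). Fdps was higher (0.13 ± 0.04, adjusted p = 0.0377, edgeR), as was Mvk (7.78, 10.5 and 13.0 CPM in Het, against 7.15, 8.30 and 9.91 CPM in WT; 0.30 ± 0.10, adjusted p = 0.0329, edgeR). Groups overlapped for Acat2, Fdps and Mvk. The balance of directions depended on the scaling here: with library totals 7 genes were higher and 1 lower, and of all called genes 69.2% were higher in place of 45.1%. The count was 2 without neo-in Het male 2 and 3 without neo-in Het male 1, 3 or 4 or neo-in WT female 1, 2 or 4. Without the libraries with neighbouring-tissue markers 2 genes were higher and 1 lower. In neo-in cortex none was called by edgeR (1.67% of all genes), 2 had an unadjusted p below 0.05 (12.9% of all genes) and DESeq2 called 0.

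Of 27 other sterol genes measured in striatum, 1 was higher and 3 lower in neo-out Het mice, where 18% of all genes were called, and 4 were higher and 2 lower in neo-in Het mice, where 19.4% were called. These shares are near those of all genes. Lcat, which esterifies cholesterol on lipoproteins, was at -0.41 ± 0.09 in neo-out and -0.34 ± 0.08 in neo-in striatum, and Cyp27a1, the sterol hydroxylase of mitochondria, at 0.32 ± 0.09 in neo-out and 0.28 ± 0.09 in neo-in striatum, all called. Por, which passes electrons to Cyp51 and Sqle, was lower in neo-out Het striatum (-0.19 ± 0.06, adjusted p = 0.0428, edgeR), and the oxysterol hydroxylase Cyp7b1 was higher in neo-in Het striatum (0.21 ± 0.07, adjusted p = 0.0247, edgeR). Of 15 fatty acid genes, 4 were lower in neo-out Het striatum and 2 in neo-in Het striatum, none higher; the desaturase Fads1 fell in both (-0.16 in neo-out and -0.12 in neo-in).

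The difference of the Het effects, neo-out less neo-in, tests whether the Het changes differed between the lines, and equally whether the line difference differed between genotypes. No gene of the 32 was called by edgeR in striatum (0.00565% of all genes called), cortex (0%) or liver (0.835%). Unadjusted p was below 0.05 for 8, 10 and 3 of them (4.54%, 5.23% and 12.9% of all genes), and DESeq2 called 0, 0 and 1. The synthesis enzymes were negative in 16 of 18 cases in striatum and 18 of 18 in cortex, with medians of -0.16 and -0.15. Insig1 was at -0.29 ± 0.08 in striatum (95% interval -0.47 to -0.12, adjusted p = 0.816, edgeR) and -0.33 ± 0.08 in cortex (-0.50 to -0.16, adjusted p = 0.461, edgeR). Cyp46a1 was at -0.09 in both (intervals -0.24 to 0.06 in striatum and -0.25 to 0.06 in cortex). A missed threshold does not show that the effects are alike: over all genes, 1 was called in striatum and 0 in cortex.

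**Figure D4:**
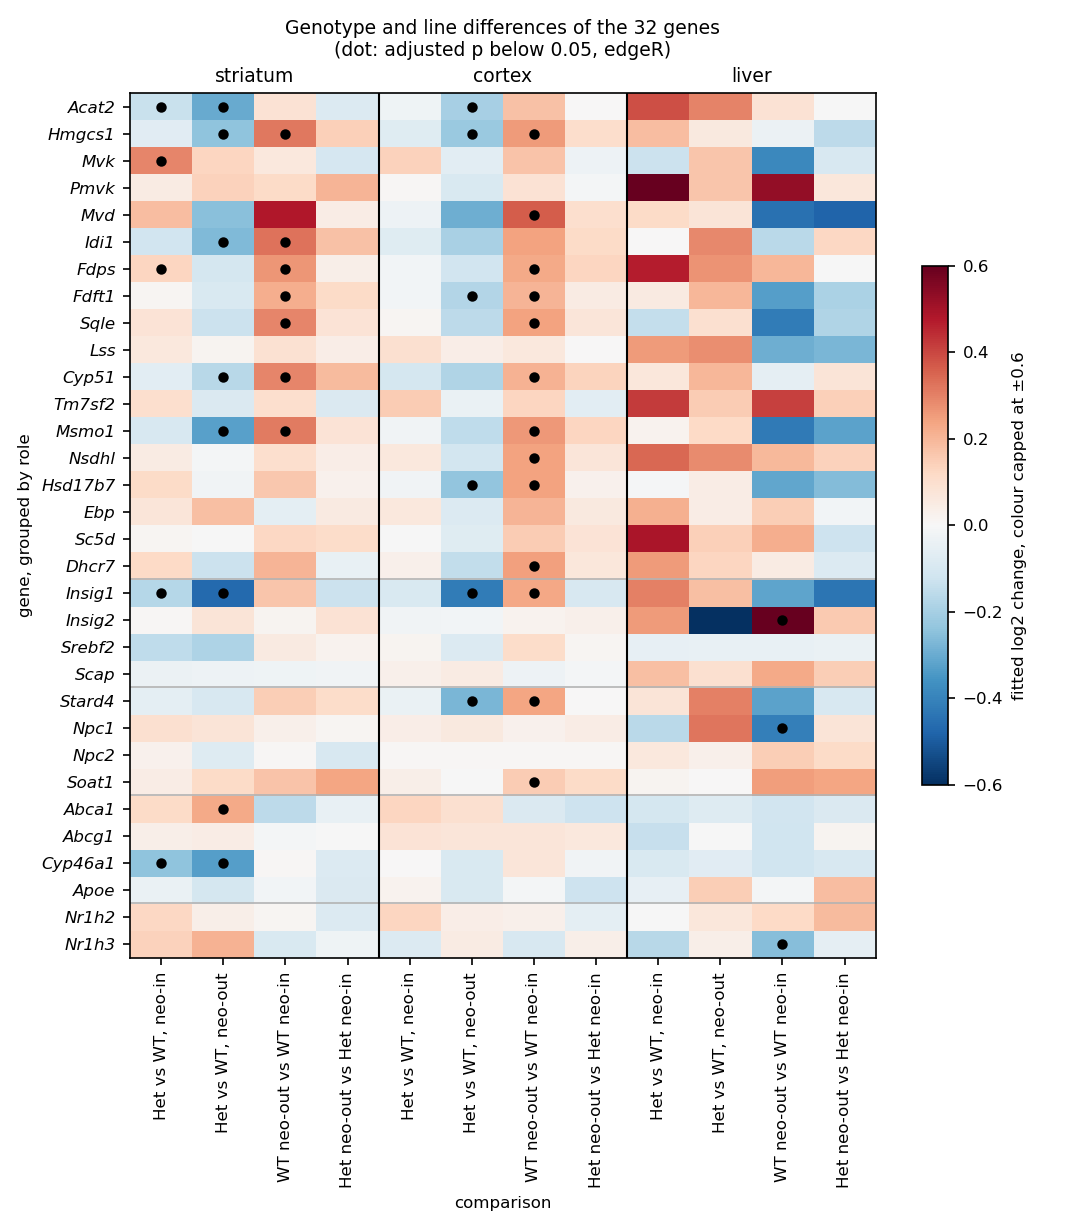
Log2 difference of the 32 genes, grouped by role, in 12 comparisons within tissues; the colour scale stops at ±0.6 and a dot marks a gene that passed the test. The wild-type line comparison has 7 dots in striatum and 13 in cortex (Insig1, Stard4 and Soat1 among them). Neo-out Het against WT has 8 dots in striatum, 5 of them synthesis enzymes, and 6 in cortex, 4 of them synthesis enzymes, with none in the comparisons of Het groups.

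Between the wild-type livers of the lines Insig2, Npc1 and Nr1h3 were called, and none of the synthesis enzymes was by edgeR (6 of 18 had an unadjusted p below 0.05). Of the 32, 1 was higher and 2 lower in neo-out WT than in neo-in WT liver, where 9.36% of all genes were called (4.91% higher and 4.45% lower), so the share of these genes is about that of all genes. Whether the line difference differs between liver and brain was not tested. Insig2 (ENSMUSG00000003721, chromosome 1, start 121304353, end 121332589, minus strand), the second protein that holds Scap back, had 179, 248 and 333 CPM in neo-out WT livers, against 85.9, 119 and 169 CPM in neo-in WT livers. The groups did not overlap, and the log2 difference was 1.09 ± 0.17 (adjusted p = 0.000155, edgeR), or 2.13-fold. Nr1h3 had 63.9, 67.2 and 69.7 CPM in neo-out WT livers, against 74.3, 77.4 and 93.9 CPM in neo-in WT livers, again without overlap (-0.25 ± 0.05, adjusted p = 0.000964, edgeR). Npc1 had 100.2, 121 and 134 CPM in neo-out WT livers, against 114, 152 and 219 CPM in neo-in WT livers, with overlap (-0.41 ± 0.11, adjusted p = 0.0201, edgeR).

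The clock score separated these same livers. With the score as covariate, Insig2 was at 0.05 (adjusted p = 0.976, edgeR), Nr1h3 at -0.13 (adjusted p = 0.740, edgeR) and Npc1 at 0.13 (adjusted p = 0.908, edgeR), with standard errors of 0.25, 0.09 and 0.20. Leaving out neo-in WT male 3 or neo-in Het male 2 gave a count of 5 in place of 3. In neo-out Het livers Insig2 had 110.2, 157 and 215 CPM, and in neo-in Het livers 72.0, 164 and 209 CPM, so the median of the neo-out WT livers, 248 CPM, was the highest of the 4 groups. Among 28 other sterol genes measured in liver, 1 was higher and 6 lower in neo-out WT mice: Lipa, the lysosomal lipase that frees cholesterol, was at 0.42 ± 0.08, and Srebf1, the relative of Srebf2 that drives fatty acid synthesis, at -0.84 ± 0.16.

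**Figure D5:**
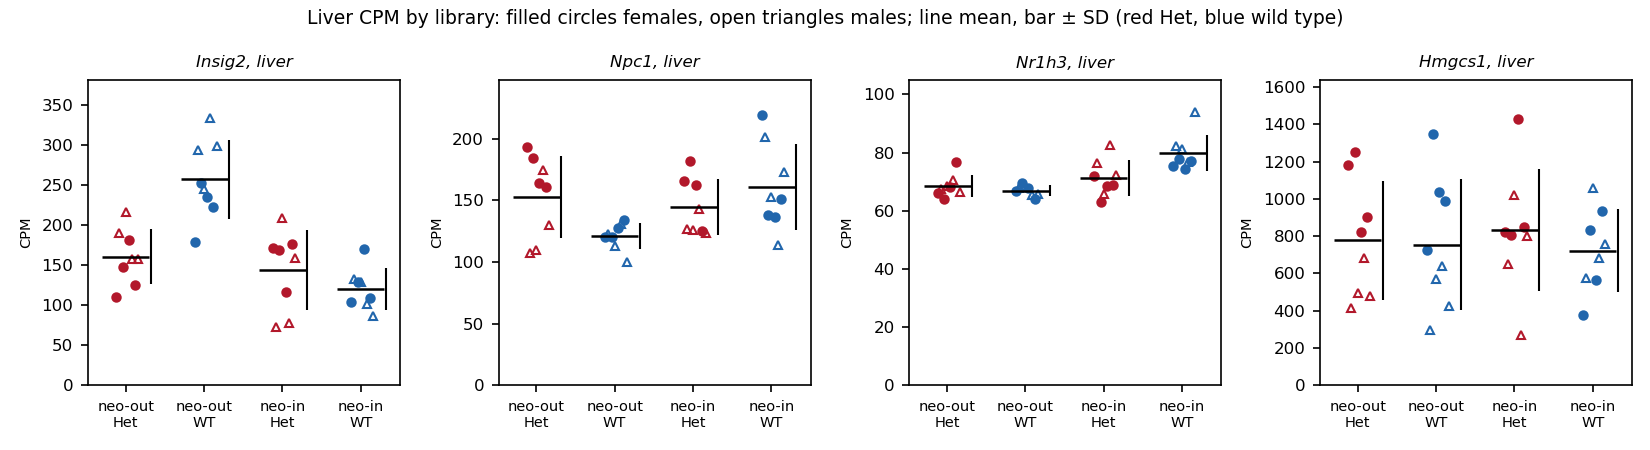
Insig2, Npc1, Nr1h3 and Hmgcs1 in each liver library, in CPM, drawn as for brain. The 8 neo-out WT livers lie above all neo-in WT livers for Insig2 and below all of them for Nr1h3, and Hmgcs1 runs from 270 to 1432 CPM across the groups.

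No member of the list was called between Het and WT livers. By edgeR 0 of 32 were called in neo-out liver (0.533% of all genes called) and 0 in neo-in liver (0.539%); 3 and 7 had an unadjusted p below 0.05 (10.6% and 14.1% of all genes), and DESeq2 called 1 and 3. In neo-out liver the nearest to the threshold was Insig2 (-0.68 ± 0.17, adjusted p = 0.0715, edgeR), and with the clock score as covariate it was at 0.03. In neo-in liver it was Sc5d (0.49 ± 0.13, adjusted p = 0.0845, edgeR), followed by Nr1h3 (-0.17 ± 0.05, adjusted p = 0.0992, edgeR) and Pmvk, phosphomevalonate kinase (0.63 ± 0.18, adjusted p = 0.108, edgeR). The synthesis enzymes were above 0 in 18 of 18 cases in neo-out liver (median 0.16) and in 15 of 18 in neo-in liver (median 0.20), where the median of all genes was 0.00 and -0.01. Without 1 library the neo-in count reached 3 (neo-in Het male 3) or 1 (neo-in WT male 3), and the neo-out count 1 (neo-out Het male 2 or neo-in Het male 1, 2 or 3). The difference of Het effects in liver was largest for Insig2 (-0.93 ± 0.24, adjusted p = 0.0598, edgeR), and 1 gene was called there without neo-out Het female 3 or male 2, neo-in Het male 1 or 3, or neo-in WT female 3 or male 3.

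Of 15 fatty acid genes, 2 were higher and none lower in neo-in Het liver, the acetyl-CoA synthetase Acss2 (1.5 ± 0.29, adjusted p = 0.0258, edgeR) and the lipid droplet protein Pnpla3 (2.32 ± 0.48, adjusted p = 0.0320, edgeR). In neo-out Het liver none of the 15 was called, and among the other sterol genes Por (0.68 ± 0.13, adjusted p = 0.0079, edgeR) and Gramd1a, which moves sterol from the plasma membrane (0.26 ± 0.06, adjusted p = 0.0388, edgeR), were higher. Of 18 clock genes, 8 were higher and 1 lower in neo-out Het than in neo-out WT liver, and none was called in neo-in liver.

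Sex differences of these genes were called in liver only, where 29.3% of all genes were called (14% higher and 15.3% lower in females). Among wild-type livers 5 were higher and 1 lower in females. Cyp46a1 was higher (1.25, 2.64 and 5.46 CPM in 8 females, against 0.45, 1.33 and 1.97 CPM in 8 males; 1.06 ± 0.24, adjusted p = 0.00165, edgeR), as was Sc5d (474, 691 and 814 CPM, against 330, 504 and 628 CPM in males; 0.42 ± 0.13, adjusted p = 0.0186, edgeR). Npc2 (0.23 ± 0.06), Srebf2 (0.25 ± 0.09) and Mvd (0.65 ± 0.24) were higher as well. Abca1 was lower (164, 194 and 224 CPM in females, against 196, 217 and 419 CPM in males; -0.30 ± 0.11, adjusted p = 0.0424, edgeR). Females and males overlapped for every one of these, and the count of 6 was 3 without neo-in WT female 2 or 4 or neo-out WT female 2. With library totals the median of all genes was 0.17 log2 higher in females, and 12 genes were higher and none lower. By edgeR no gene of the 32 was called between the sexes in striatum (0.232% of all genes called) or cortex (0.396%); 5 and 6 had an unadjusted p below 0.05 (11.9% and 12.3% of all genes), and DESeq2 called 0 in both. Of 28 other sterol genes in liver, 8 were higher and 1 lower in females, with Cyp7b1 at -3.62 ± 0.19 and Vldlr, a lipoprotein receptor, at 2.88 ± 0.23.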

How the data were processed

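Messenger RNA of 95 libraries (4 per line, genotype, sex and tissue, and 3 for neo-out Het male striatum) was analysed. The authors deposited expected counts per gene, estimated and not scaled to depth, and FPKM of the same libraries, scaled to gene length and library size. They also deposited an alignment count per library and the CAG repeat number per animal, given as other information (181 to 200 in neo-in Het and 179 to 208 in neo-out Het mice). Per the submitters' processing notes, CASAVA 1.8.2 and mm10 were used. The aligner, the counting program, the annotation and the strandedness of the libraries were not given in the sources used. Per the labels, tissue was flash frozen and RNA extracted with miRNeasy. Expected counts were not whole for 32.2% of the values above 1 and were rounded. GENCODE M21 named 37607 of the 39179 genes; the 1572 unnamed ones held at most 0.329% of a library's counts. Over 141 pairs of replicates the lowest chi-square per gene was 4.33; no pair differed by as little as sampling noise. The labels do not say more of how replicates were taken than the animal each came from.

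Each tissue was fitted alone with edgeR 4.0.16 (R 4.3.3): filterByExpr, TMM scaling, and a quasi-likelihood model with 1 coefficient per line, genotype and sex. The spread was estimated over the whole tissue. Contrasts average the sexes. Wild-type tissues were compared in 1 fit of 48 libraries, without a block on the animal. The labels name the animal of each library, and a fit with the animal as block was an alternative. P values were adjusted by Benjamini-Hochberg over all genes of a contrast, and a gene was called at an adjusted p below 0.05. Errors are standard errors. CPM are TMM-scaled and are read as levels of 1 gene across libraries, and levels of different genes are compared in FPKM alone. Alternatives were DESeq2 1.42.0, RLE scaling, library totals, no filter on low counts, limma 3.58.1 on log2(FPKM + 0.1) with mean FPKM above 0.1, a replicate block, the clock score of each animal's liver, and each library left out in turn. The comparison of Het groups and the fits without libraries with neighbouring-tissue markers (Slc17a7 or Ttr above 100 CPM in striatum; Ttr above 100 or Drd2 above 4 CPM in cortex) were added after seeing the data. The edgeR script was tested on simulated data.

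The 32 genes and all gene lists were chosen with earlier results of these data known. Genes were named by rule: all called genes of a contrast up to 8, otherwise the 8 with the smallest p, with Insig1, Hmgcs1, Sqle, Idi1, Srebf2, Abca1, Apoe and Cyp46a1 in every tissue; any other of the 32 may be named, and up to 3 genes of each other list by smallest p. Promoter sequences are from RefSeq on GRCm38.p6.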

Additional observations from a re-analysis of the deposited data

Results flagged for a closer look

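Within groups of 7 or 8 libraries, 26 of 384 sets of values (32 genes, 3 tissues, 4 groups) had a highest or lowest library set apart from the rest by Dixon's criterion; chance alone gives about 1 in 20. Values are CPM beside the group median, and no cause was tested.

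Male 2 of neo-in WT cortex was the highest of its group for Idi1 (84.3 against 57.5), Cyp51 (82.7 against 62.5), Msmo1 (113 against 86.3) and Insig1 (103 against 81.5), and in striatum the same animal was highest for Sqle (38.8 against 30.8). Male 4 of neo-out WT striatum was the lowest for Lss (38.2 against 45.7), Nsdhl (15.3 against 19.0) and Sc5d (40.5 against 43.9). Insig1 was lowest in male 1 of neo-in Het cortex (66.6 against 79.9). Fdft1 was highest in male 1 of neo-in Het striatum (62.1 against 53.8), Mvd in male 4 of neo-out Het striatum (12.4 against 9.13), and Hsd17b7 in male 1 and Srebf2 in male 2 of neo-out WT striatum (23.6 against 21.0, and 185.6 against 160).

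In liver, Mvd was highest in female 3 of the neo-in Het group (70.2 against 32.7) and in female 2 of the neo-out WT group (58.4 against 22.2). Male 3 of neo-in WT liver was the highest for Abca1 (419 against 209.7) and the lowest for Scap (76.8 against 114). Nr1h3 was highest in male 4 of neo-in WT liver (93.9 against 77.4), and Nr1h2 lowest in male 3 of neo-out WT liver (20.1 against 28.7).

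Among transport and efflux genes in brain, Npc2 was highest in male 1 of neo-out Het cortex (52.9 against 43.9), in female 1 of neo-out WT cortex (52.3 against 43.8) and in female 3 of neo-out WT striatum (72.3 against 62.4). Both of these WT libraries also held markers of neighbouring tissue. Soat1 was highest in male 1 of neo-out Het cortex (30.3 against 26.2) and lowest in male 4 of neo-in Het striatum (22.0 against 30.95), Abcg1 highest in female 1 of neo-in WT striatum (94.1 against 80.3), and Nr1h3 highest in male 3 of neo-in WT striatum (3.88 against 2.83).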

How the results depend on the processing

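Of 210 named values 82 were called. The values were refitted under the alternatives, but the clock score was not used between tissues. The fit without libraries with neighbouring-tissue markers was not made within liver. Of the called values, Npc1 between the wild-type livers turned, to 0.13 with the clock score as covariate. Some uncalled values also changed sign. Outside that set, Nr1h2, called higher in liver, turned against cortex with library totals (-0.41) and FPKM (-0.46) and was at -0.09 against striatum with FPKM. Counts of called genes moved by more than 1.5 times as follows; where a value above does not show it, the cause was not tested. With the clock score the count was 3 in neo-in striatum (5 as reported), 2 in neo-out striatum (8), 2 in neo-out cortex (6), 0 in wild-type striatum (7), 1 in wild-type cortex (13) and 0 in wild-type liver (3) between the lines. Without libraries with neighbouring-tissue markers it was 3 in neo-in striatum and 0 between the wild-type lines in striatum and in cortex. With library totals it was 8 in neo-in striatum and 12 between the sexes in liver (6), and with FPKM 12 and, between the wild-type lines in cortex, 8. Without the filter on low counts it was 2 in neo-in striatum. DESeq2 gave 3 in neo-in liver, 1 in neo-out liver, 1 for the difference of Het effects in liver and 1 between the Het lines in striatum (0 each), and 6 between the wild-type lines in liver.

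Leaving out each library in turn gave 2 to 6 in neo-in striatum, 7 to 10 in neo-out striatum, 3 to 9 in neo-out cortex, 0 to 3 in neo-in liver and 0 to 1 in neo-out liver. It gave 6 to 8, 7 to 16 and 2 to 5 between the wild-type lines in striatum, cortex and liver, 0 to 1 for the difference of Het effects in liver and between the Het lines in striatum, 3 to 7 between the sexes in liver, 32 between liver and either brain tissue, 27 to 28 between striatum and cortex, and 0 for the rest. Among the named values so refitted, 7162 stayed on their side of the threshold, 119 lost the call and 21 gained one. The labels do not say whether replicate numbers pair the samples. Of 47 correlations of same-numbered libraries 21 were over 0.1, from -0.60 to 0.54, which does not settle it. With a replicate block the counts were 5, 8, 0 and 6 for the Het comparisons in neo-in and neo-out striatum and cortex. They were 7, 10 and 3 between the wild-type lines in striatum, cortex and liver, and 6 between the sexes in liver. Between tissues, with the animal as block, they were 32, 32 and 27. No call changed among the 210 named values. Outside that set calls were lost between the wild-type lines in cortex, where 10 of 13 genes kept the call.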
